A study of Mus musculus with 4 samples.

Results

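The let-7 and miR-98 family was followed in small RNA from exosome-enriched preparations of C8-D1A, an established mouse cerebellar astrocyte cell line labelled wild type. Its members were taken by name as every row called mmu-let-7 plus 1 letter, with any arm or suffix, and every row starting with mmu-miR-98. This gave 16 of the 389 mature miRNAs in the table, of which 9 are named as the 5p arm, 5 as the 3p arm and 2 (let-7j and let-7k) carry no arm in their name. The 5p rows are called guide and the 3p rows passenger by name alone. The vesicles were pelleted by ultracentrifugation from culture supernatant, with 2 libraries of the control group, labelled as kept at 37 °C for 8 h, and 2 of the heat stress group, held at 42 °C during 2 h before 6 h of rewarming at 37 °C. The series describes the 2 libraries of a group as biological replicates, and the cell culture methods give 2 h instead of 8 h for the control dishes. The comparison asks which miRNAs in the vesicles differ after heat stress of the astrocytes.

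The let-7 miRNAs are among the most strongly conserved small RNAs of animals. The guide strand is loaded into an Argonaute protein and lowers the output of mRNAs that pair with its seed, the bases at positions 2 to 8 from the 5′ end. The family is known for holding back proliferation and stem-like states (Lin28, Hmga2 and Ras mRNAs are textbook targets), it is abundant in the mature brain, and Lin28 proteins in turn block the maturation of let-7 precursors. The passenger strand comes from the other side of the same hairpin and is usually degraded.

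The sequences of the 9 guide miRNAs and of let-7j and let-7k are shown because the members differ by so few bases. They were taken from RefSeq on GRCm38.p6, written 5′ to 3′ with the seed in capitals and in order of abundance.
let-7c-5p: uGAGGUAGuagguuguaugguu
let-7b-5p: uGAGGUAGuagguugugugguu
let-7a-5p: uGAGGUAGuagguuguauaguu
let-7f-5p: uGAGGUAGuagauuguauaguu
let-7i-5p: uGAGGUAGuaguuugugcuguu
let-7g-5p: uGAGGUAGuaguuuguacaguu
let-7d-5p: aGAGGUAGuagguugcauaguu
let-7e-5p: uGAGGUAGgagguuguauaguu
miR-98-5p: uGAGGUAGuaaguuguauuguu
let-7j: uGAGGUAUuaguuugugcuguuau
let-7k: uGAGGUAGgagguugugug

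All 9 guide miRNAs are 22 bases long, so their values need no correction for length, and all 9 hold the seed GAGGUAG. Whether some sequences are captured better than others in the libraries was not tested, so abundance here means the deposited value. Let-7k (19 bases) holds it too, whereas the seed of let-7j (24 bases) is GAGGUAU. Of the 325 rows of the table with a RefSeq mature sequence, 0 outside the family hold either seed. Counted from 1 at the 5′ end, let-7c-5p differs from let-7a-5p only by A19G, let-7f-5p only by G12A and let-7e-5p only by U9G. Let-7b-5p differs from let-7c-5p only by A17G. The most distant guide pair, let-7i-5p and let-7d-5p, differs at 6 positions. A read with 1 sequencing error can therefore be given to a neighbouring member, and how such reads were assigned is not given in the sources used here. The culture medium held fetal bovine serum. Mature let-7 sequences are shared between mouse and cow, and reads of either origin cannot be told apart.

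These 16 miRNAs come from 14 hairpins (RefSeq, GRCm38.p6, while the build behind the deposited values is not given in the sources used here). Let-7a-5p, let-7c-5p and let-7f-5p each come from 2 hairpins, and the other 6 guide miRNAs from 1. Mirlet7a-1, Mirlet7f-1 and Mirlet7d lie together on chromosome 13 (48536012 to 48538272, minus strand) within exons of the long non-coding gene 6720427I07Rik of GENCODE M21, with 261 and 1714 bases between neighbours. Mirlet7c-2 (chromosome 15, 85706603 to 85706697) and Mirlet7b (85707319 to 85707403) lie 621 bases apart within exons of Lncppara. Mirlet7f-2 and Mir98 lie 785 bases apart on chromosome X (151912346 to 151913321) in an intron of Huwe1. Mirlet7c-1 is in an intron of Mir99ahg on chromosome 16 (77599657 to 77599750), beside miR-99a. Mirlet7a-2 lies on chromosome 9 (41536716 to 41536811) in introns of 3110039I08Rik and Gm49317, Mirlet7g on the same chromosome (106178840 to 106178927) in an intron of Wdr82, Mirlet7e on chromosome 17 (17830352 to 17830444) in an intron of Spaca6, and Mirlet7i on chromosome 10 (122985640 to 122985724) within an exon of the pseudogene D630033A02Rik. Mir7j on chromosome 3 (140028249 to 140028370) and Mir7k on chromosome 5 (147283189 to 147283298), the sources of let-7j and let-7k, overlap 0 genes of GENCODE M21 other than miRNA genes. Of the 23 mature names that RefSeq gives for the 14 hairpins, 7 were not analysed here, and all 7 are 3p arms (let-7a-2-3p, let-7c-1-3p, let-7e-3p, let-7f-2-3p, let-7g-3p, let-7i-3p and miR-98-3p).

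The values are normalized signals, 1 per miRNA and library. Each library's values are whole multiples (within 0.01) of a step, although a second check of whole multiples failed in 2 of the libraries. Summed over all rows, those of identical sequence included, the steps numbered 43675 (control library 1), 95020 (control library 2), 100933 (heat stress library 1) and 63338 (heat stress library 2). These are read numbers only if a step is worth 1 read and no read is counted in 2 rows. The read volume per sample that the paper's methods give is far larger than these totals, and the reason was not tested. Between 223 and 270 miRNAs were above 0 in a library. No miRNA defines astrocytes alone. The 3 miRNAs fixed as enriched in astrocytes (miR-23a-3p, miR-26a-5p and miR-29a-3p) were above 0 in all 4 libraries, with a summed value of 1010 to 1562. Most of this sum was miR-26a-5p, at 909 to 1505, while miR-23a-3p was at 32.4 to 117 and miR-29a-3p at 24.3 to 48.8. The neuronal miR-124-3p was at 0 to 4.06, while miR-128-3p, also listed for neurons, was at 382 to 540. The neural miR-9-5p ranged from 0 (control library 2) to 138. Of the miRNAs listed for other sources, miR-223-3p of blood cells and microglia was at 0 in 3 libraries and at 0.790 in heat stress library 1, the red cell miR-451a was at 15.0 to 37.0, the liver miR-122-5p at 20.5 to 90.8, and the muscle miR-206-3p at 14.9 to 34.4. The muscle miR-1a-3p had control values of 24.4 and 73.5, against 3.16 and 0 after heat stress. Of the other listed miRNAs, miR-142-3p, miR-142a-3p and miR-133a-3p were not analysed here.

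Let-7c-5p (mmu-let-7c-5p in the table) was the most abundant member. It had a value of 4105 in control library 1, 10749 in control library 2, 11547 in heat stress library 1 and 6256 in heat stress library 2, and ranked 2 among all 389 miRNAs by mean value. It was low in 1 library of each group and high in the other, and the groups overlapped. If a step is worth 1 read, these values rest on 3030 to 14611 reads. Let-7b-5p (mmu-let-7b-5p), from the hairpin next to Mirlet7c-2, had control values of 1867 and 2625 and heat stress values of 2606 and 1956. Its 2 groups covered nearly the same range.

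Let-7a-5p, the form conserved from worms to mammals, had control values of 717 and 1666, against 843 and 790 after heat stress. Control library 2 stood above the other 3 libraries, which lay close together. Let-7f-5p, which shares 1 cluster with let-7a-5p on chromosome 13, had control values of 534 and 1165, against 1130 and 790 after heat stress. In heat stress library 2 both were at 789 steps. Here control library 1 was the lowest and the groups overlapped.

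Let-7i-5p, from a hairpin of its own, had control values of 362 and 785, against 592 and 613 after heat stress. Both heat stress values lay between the 2 control values. Let-7g-5p, encoded in an intron of Wdr82, had the same arrangement, with 129 and 458 in the control libraries and 333 and 275 after heat stress. The 2 control libraries of let-7g-5p differed 3.56-fold, the widest control spread among the 9 guide miRNAs.

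Let-7d-5p, the guide miRNA that starts with A instead of U, had control values of 90.8 and 87.6, against 132 and 177 after heat stress. Both heat stress libraries lay above both control libraries. Let-7e-5p, which lies in a cluster with miR-99b and miR-125a, had control values of 35.2 and 57.9, against 39.5 and 34.0 after heat stress, with overlap. MiR-98-5p, the lowest guide miRNA, had control values of 6.77 and 21.9, against 54.5 and 22.0 after heat stress. The groups did not overlap, but control library 2 and heat stress library 2 were 28 and 22 steps, and nearly equal in value. The 2 members without an arm in their name were low, with let-7j at 1.35 and 1.56 in the control libraries and 1.58 and 8.01 after heat stress, and let-7k between 0 and 3.00. Let-7j also did not overlap between groups, on 1, 2, 2 and 8 steps.

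**Figure D1:**
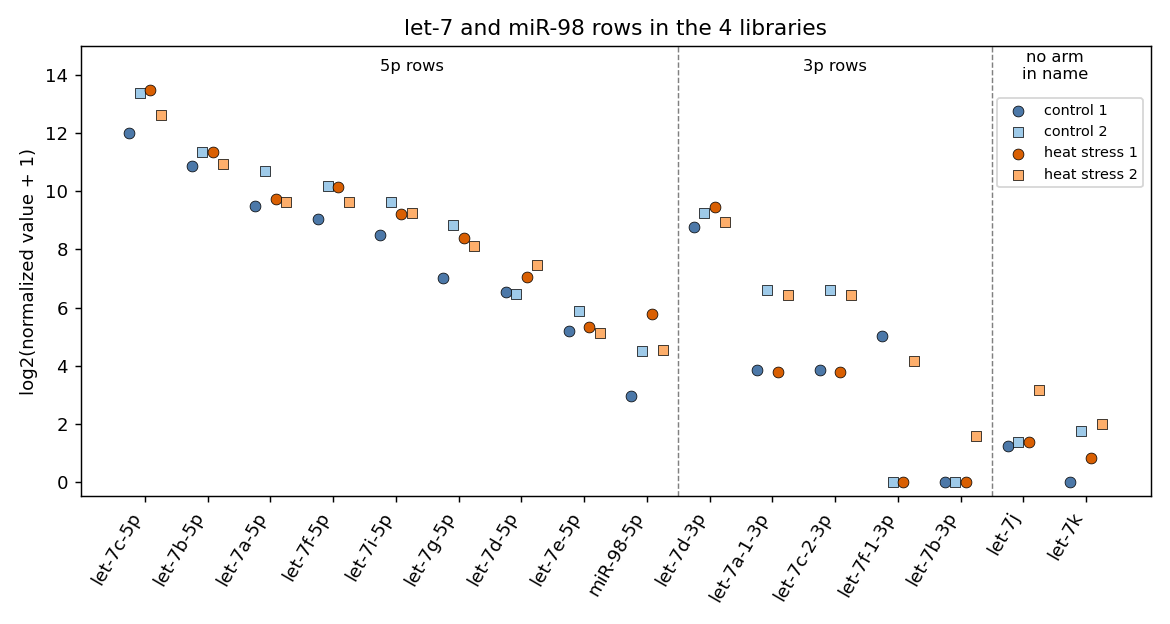
Log2(normalized value + 1) of the 16 members in each library, with control libraries in blue and heat stress libraries in orange, and circles for replicate 1 and squares for replicate 2. The 5p rows are in order of mean value, control library 1 is the lowest library in 7 of the 9, and let-7d-3p lies above let-7d-5p in all 4 libraries.

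The order of the guide miRNAs by mean value was let-7c-5p, let-7b-5p, let-7a-5p, let-7f-5p, let-7i-5p, let-7g-5p, let-7d-5p, let-7e-5p and miR-98-5p. Neighbours whose ranges over the 4 libraries did not overlap were let-7c-5p and let-7b-5p, let-7b-5p and let-7a-5p, and let-7d-5p and let-7e-5p. Within each library let-7c-5p was 2.20 to 4.43 times let-7b-5p, and let-7b-5p was 1.58 to 3.09 times let-7a-5p. Let-7f-5p stood above let-7i-5p, let-7i-5p above let-7g-5p and let-7g-5p above let-7d-5p within all 4 libraries, although their ranges across libraries overlapped. The order was not settled for let-7a-5p and let-7f-5p, whose ratio ran from 0.746 to 1.43, nor for let-7e-5p and miR-98-5p, whose ratio ran from 0.725 to 5.20. In both pairs heat stress library 1 had the reverse order.

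Summed over the 9 guide miRNAs, a quantity that does not change when reads are exchanged between near-identical members, the family reached 7845 and 17617 in the control libraries and 17277 and 10912 in the heat stress libraries. As a share of all miRNA signal this was 13.3% and 23.7% for the controls, against 21.7% and 17.2% after heat stress. Both heat stress shares lay between the 2 control shares. In such bulk preparations fewer vesicles carrying a miRNA and less of it per vesicle cannot be told apart. The log2 ratio of the heat stress mean to the control mean was 0.15 for the sum and 0.07 for the share. The within-group SD of the log2 values was 0.67 for the sum and 0.45 for the share, so the difference between groups was smaller than the spread between replicates in both. The log2 ratio of the sum was -0.32 without control library 1 and 0.85 without control library 2. Leaving out heat stress library 1 gave -0.22, and leaving out heat stress library 2 gave 0.44. Its direction thus turned with the library left out in either group.

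The 2 members with G at position 19, let-7c-5p and let-7b-5p, held 76.1% and 75.9% of the guide total in the control libraries and 81.9% and 75.3% in the heat stress libraries. Let-7c-5p alone held from 52.3% (control library 1) to 66.8% (heat stress library 1). The 3 guide miRNAs made from 2 hairpins held 68.3% to 78.3% of the total. The smallest share was that of miR-98-5p, 0.0863% to 0.316%.

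**Figure D2:**
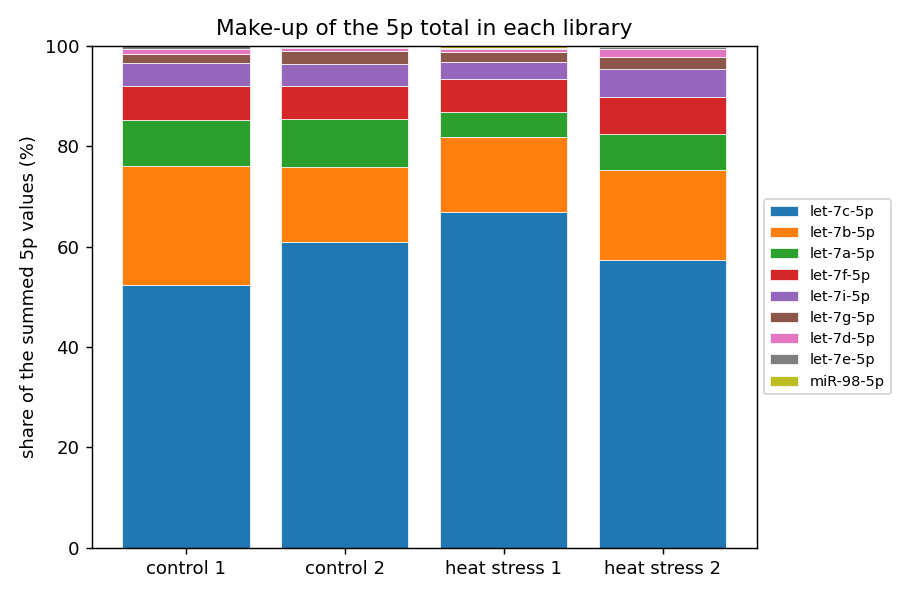
Stacked bars of the percentage of the summed guide values held by each of the 9 guide miRNAs in each library. Let-7c-5p fills 52.3% to 66.8% of every bar, and let-7a-5p fills 9.13% and 9.46% of the control bars against 4.88% and 7.24% of the heat stress bars.

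Log2(value + 1) was compared between groups with limma over the 313 miRNAs whose mean was 1 or more, and 15 of the 16 members passed this filter. The exception was let-7b-3p, which was at 0 in 3 libraries and at 2.00 in heat stress library 2. The study's threshold (a change above 2-fold and p below 0.05 before adjustment) was passed by 0 of the 15 members, against 23 of the 313 miRNAs, or 7.35% (14 higher, 4.47%, and 9 lower, 2.88%). The number of members with an unadjusted limma p under 0.05 was also 0. The smallest limma p among the members was 0.233, with an adjusted p (Benjamini-Hochberg over 313) of 0.686, for miR-98-5p, and 0 of the 313 miRNAs had an adjusted limma p under 0.05, against 23 before adjustment. The median log2 change was 0.26 over the 9 guide miRNAs, 0.18 over the 15 members tested and 0.12 over all 313 miRNAs, and 7 of the 9 guide miRNAs had a positive log2 change, against 52.7% of all 313.

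MiR-98-5p had a log2 change of 1.42 with a 95% confidence interval from -1.28 to 4.12, and was 14.3 ± 10.7 in the control group and 38.3 ± 23.0 after heat stress (SD, n = 2). For let-7d-5p the log2 change was 0.77 (interval -1.40 to 2.94), with 89.2 ± 2.22 in the control group and 155 ± 32.0 after heat stress (SD, n = 2). Let-7a-5p had a log2 change of -0.42 (interval -2.78 to 1.94), and let-7e-5p, the other guide miRNA with a negative value, of -0.29 (interval -2.52 to 1.93). The log2 changes of let-7c-5p (0.36, interval -2.18 to 2.89) and let-7b-5p (0.03, interval -2.18 to 2.23) were small beside their intervals. On the linear scale the interval of let-7b-5p runs from 0.221-fold to 4.70-fold. These libraries therefore do not separate a change of several fold in either direction from none. When 1 library at a time was left out, the log2 change of 7 of the 9 guide miRNAs took both signs, and only let-7d-5p and miR-98-5p stayed positive throughout. Let-7a-5p passed the threshold without control library 1, with a log2 change of -1.03 and an adjusted limma p of 0.346. Let-7j passed it without heat stress library 1, with a log2 change of 1.87 and an adjusted limma p of 0.102. With 2 libraries against 2, the smallest p of an exact two-sided permutation test of 1 miRNA is 0.333.

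**Figure D3:**
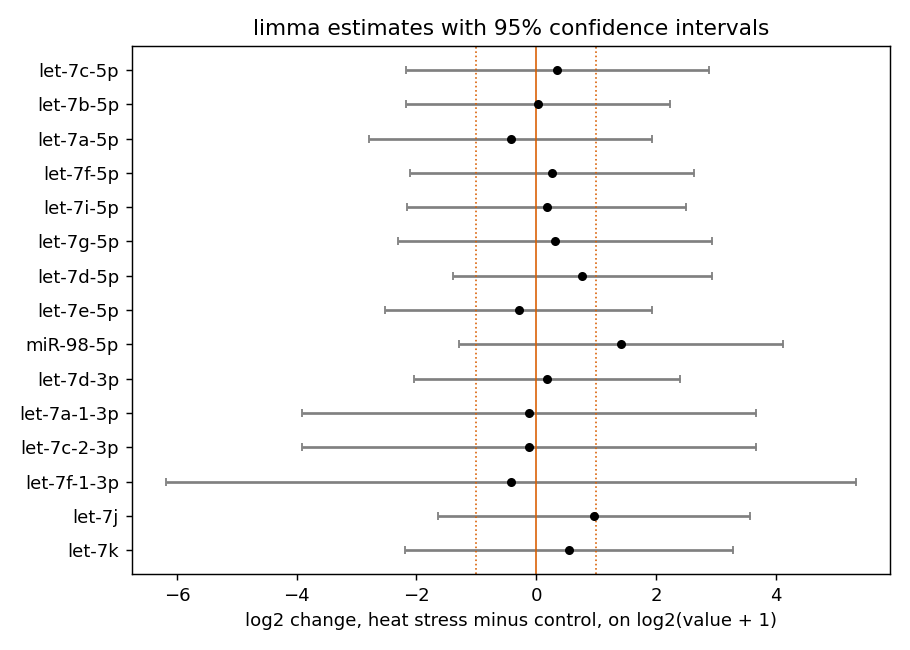
The limma log2 change (heat stress minus control, on the log2(value + 1) scale) of the 15 members tested, with 95% confidence intervals as bars, a solid line at 0 and dotted lines at the 2-fold limits. Every interval crosses 0, and the estimates of the guide miRNAs run from -0.42 (let-7a-5p) to 1.42 (miR-98-5p).

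For 8 of the 9 guide miRNAs the 2 control libraries differed by a larger fold than the group means did, and let-7d-5p was the exception. The 2 heat stress libraries differed by a larger fold than the group means in 4 of the 9. Control library 2 was above control library 1 in 8 of 9 guide miRNAs, against 37.7% of the 313 miRNAs tested, and control library 1 was the lowest library in 7 of 9, against 14.7% of the 313. The 313 include 58 miRNAs with equal values in the 2 control libraries, which lowers both percentages, while the control values of every guide miRNA differed. The groups did not overlap for 2 of the 9 guide miRNAs, let-7d-5p and miR-98-5p, both higher after heat stress. Over the 313 miRNAs 27.5% did not overlap, 16.0% with heat stress higher and 11.5% with heat stress lower, so 2 of 9 is close to this background.

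Ratios between members within a library do not depend on how the libraries were scaled. They were looked at after the values had been seen. Let-7a-5p was 1.34 and 1.43 times let-7f-5p in the control libraries, and 0.746 and 1.00 times in the heat stress libraries. These miRNAs differ by G12A alone and share a cluster. Each also has a hairpin outside it, Mirlet7a-2 on chromosome 9 and Mirlet7f-2 on chromosome X. Let-7c-5p also differs from let-7a-5p at 1 base. It was 5.73 and 6.45 times let-7a-5p in the control libraries and 13.7 and 7.92 times in the heat stress libraries. The share of let-7a-5p in the guide total was 9.13% and 9.46% in the control libraries against 4.88% and 7.24% after heat stress. Let-7a-5p was lower after heat stress, without overlap, in 6 of its 8 ratios to other guide miRNAs. These ratios and the share all rest on the same let-7a-5p values, so they are not separate observations. In its own values let-7a-5p overlapped between groups. Its ratios to let-7b-5p and to let-7e-5p overlapped, and let-7e-5p too differs from it at 1 base, with let-7a-5p 20.3 and 28.8 times let-7e-5p in controls and 21.3 and 23.2 times after heat stress.

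Let-7e-5p, which also had a negative log2 change, was lower in 6 of its 8 ratios. Its share of the guide total was 0.449% and 0.329% in the control libraries and 0.229% and 0.312% after heat stress. The shares of control library 2 and heat stress library 2 were thus close. The let-7e-5p values rested on 26 and 74 steps in the control libraries and 50 and 34 after heat stress. MiR-98-5p was higher in 7 of its 8 ratios, and its share went from 0.0863% and 0.124% to 0.316% and 0.202%. Its values rested on 5 and 28 steps in the control libraries and 69 and 22 after heat stress. No counting error was set on these ratios. Of the 36 ratios between guide miRNAs, 18 (50.0%) did not overlap between groups, against 36.5% of 8646 ratios among the 132 miRNAs above 0 in every library with a mean of 10 or more. The 36 ratios share members and are not independent, so these counts are a description. The other 6 guide miRNAs had overlapping shares. No background was computed for shares, so the lack of overlap for let-7a-5p, let-7e-5p and miR-98-5p is a description too. It stands beside the 36.5% of ratios without overlap.

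**Figure D4:**
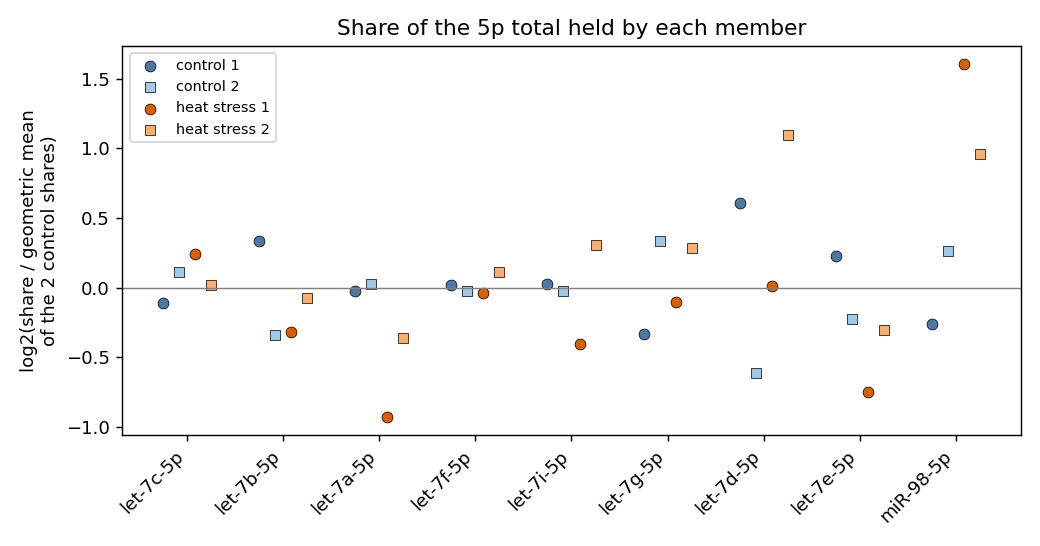
The share of the guide total held by each guide miRNA in each library, as log2 of its ratio to the geometric mean of the 2 control shares, with control libraries in blue and heat stress libraries in orange. Both heat stress libraries lie below both control libraries for let-7a-5p and let-7e-5p and above them for miR-98-5p, and the groups overlap for the other 6.

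Among the passenger rows 1 miRNA stood out in level. Let-7d-3p had control values of 435 and 614, against 696 and 490 after heat stress, which made it 82.4% to 98.2% of the passenger total. Its groups overlapped and its log2 change was 0.18 (interval -2.04 to 2.39). It exceeded let-7d-5p, the other arm of the same hairpin, 4.79-fold and 7.01-fold in the control libraries and 5.28-fold and 2.77-fold in the heat stress libraries. Thus the arm named as passenger had the higher value in all 4 libraries. The let-7d hairpin is printed with its 5p arm and then its 3p arm in capitals (Mirlet7d, RefSeq, GRCm38.p6, chr13:48536012-48536114, minus strand).
Mirlet7d: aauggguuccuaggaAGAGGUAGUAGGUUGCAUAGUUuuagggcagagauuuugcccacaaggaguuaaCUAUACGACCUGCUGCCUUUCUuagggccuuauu

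In the other pairs of a 5p and a 3p row of the family the 5p row was the higher in all 4 libraries. Let-7a-5p, let-7c-5p and let-7f-5p each come from 2 hairpins, so their pairs do not compare the arms of a single hairpin. Let-7a-5p was 9.17 to 66.7 times let-7a-1-3p, and let-7c-5p was 72.7 to 913 times let-7c-2-3p. Let-7b-5p was at 1956 in heat stress library 2, the library in which let-7b-3p was at 2.00. Over all miRNAs, 14 pairs of arms of the same name were above 0 in every library. In 5 of these, the let-7d pair among them, the 3p arm was the higher in all 4 libraries.

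The 3p arms are shown because 2 of them cannot be told apart. They were taken from RefSeq with bases 2 to 8 in capitals.
let-7d-3p: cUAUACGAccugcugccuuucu
let-7a-1-3p: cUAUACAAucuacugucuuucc
let-7c-2-3p: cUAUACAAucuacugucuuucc
let-7f-1-3p: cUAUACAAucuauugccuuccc
let-7b-3p: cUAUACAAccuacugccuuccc

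Let-7a-1-3p, from chromosome 13, and let-7c-2-3p, from chromosome 15, have the same 22 bases, and both rows hold the same value in every library, 13.5 and 95.4 in the control libraries and 12.6 and 86.1 in the heat stress libraries. They are therefore 1 measurement, and which hairpin it comes from cannot be told apart. Among the 325 rows with a RefSeq mature sequence, 1 other pair had identical sequences, miR-199a-3p and miR-199b-3p, and its rows also held equal values. The remaining rows were not compared by sequence. The value was low in replicate 1 and high in replicate 2 of both groups, a difference of 7.05-fold between the control libraries and 6.81-fold between the heat stress libraries, on 10, 122, 16 and 86 steps. Its log2 change was -0.12 (interval -3.92 to 3.68).

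Let-7f-1-3p, which differs from let-7a-1-3p by C13U, U16C and U20C, had control values of 31.2 and 0 and heat stress values of 0 and 17.0, on 23 and 17 steps where it was above 0. It was above 0 in 1 library of each group, and the groups overlapped. If a step is worth 1 read, a value of 0 allows up to 3 reads. This is 2.35 in control library 2 and 2.37 in heat stress library 1, the libraries in which let-7f-1-3p was at 0. With the identical rows counted once, there were 6.11 and 4.03 passenger units per 100 guide units in the control libraries and 4.10 and 5.46 after heat stress, with overlap between groups. This ratio had a log2 change of -0.08, smaller than its within-group SD of 0.36. Without control library 1 it was 0.25 and without heat stress library 1 it was 0.11, while it was -0.35 without control library 2 and -0.31 without heat stress library 2.

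Several let-7 hairpins are made from transcripts that also carry miR-99, miR-100 or miR-125 hairpins. Of these cluster partners, 8 were in the table, and 0 were past the threshold, against 7.35% of all miRNAs. Their median log2 change was 0.30, beside 0.12 over all 313 miRNAs, and 7 of the 8 had a positive value. The groups did not overlap for 5 of the 8, all higher after heat stress, against 16.0% of all miRNAs tested. Control library 1 was above control library 2 in 7 of the 8 partners and in 1 of the 9 guide miRNAs. MiR-99a-5p, which lies beside Mirlet7c-1, had control values of 486 and 494, against 544 and 559 after heat stress. Let-7c-5p was 8.44 and 21.8 times miR-99a-5p in the control libraries and 21.2 and 11.2 times after heat stress. This ratio varied 2.58-fold over the 4 libraries, but let-7c-5p also comes from Mirlet7c-2 on chromosome 15, outside that cluster. Let-7a-5p was 0.901 and 2.94 times miR-100-5p, which lies in the cluster of Mirlet7a-2, in the control libraries, and 0.899 and 0.643 times after heat stress. This ratio did not overlap between groups, although the values of control library 1 and heat stress library 1 were nearly equal. Let-7a-5p, too, has a hairpin outside that cluster, Mirlet7a-1 on chromosome 13. The guide total was 1.43 and 4.31 times the summed 5p partners in the control libraries and 2.98 and 1.47 times in the heat stress libraries.

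The pattern of the guide total over the 4 libraries was compared with that of 47 miRNAs outside the family and its partners whose mean was 100 or more. The measure was the root-mean-square difference of log2(value + 1), each centred on its own mean over the 4 libraries. MiR-148a-3p, the most abundant miRNA of the table, was the closest with 0.0797, and its values were 11928 and 23176 in the control libraries and 23825 and 15961 after heat stress. MiR-21a-5p (0.184), the identical rows miR-199a-3p and miR-199b-3p (0.192) and miR-196a-5p (0.229) followed, and the median over the 47 was 0.604. Within the family, let-7f-5p (0.0569) and let-7c-5p (0.129) were closest to the total that they are part of, and miR-98-5p (0.651) and let-7d-5p (0.638) were farthest. Among the partners the difference was from 0.476 (miR-99a-5p) to 0.818 (miR-99b-5p). The total of all miRNA values was 59165 and 74337 in the control libraries and 79765 and 63397 in the heat stress libraries. It was also lowest in control library 1, but it contains the family and miR-148a-3p. The guide total made up 13.3% to 23.7% of it and miR-148a-3p 20.2% to 31.2%, both shares lowest in control library 1. The part of the library total in these patterns was not tested.

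**Figure D5:**
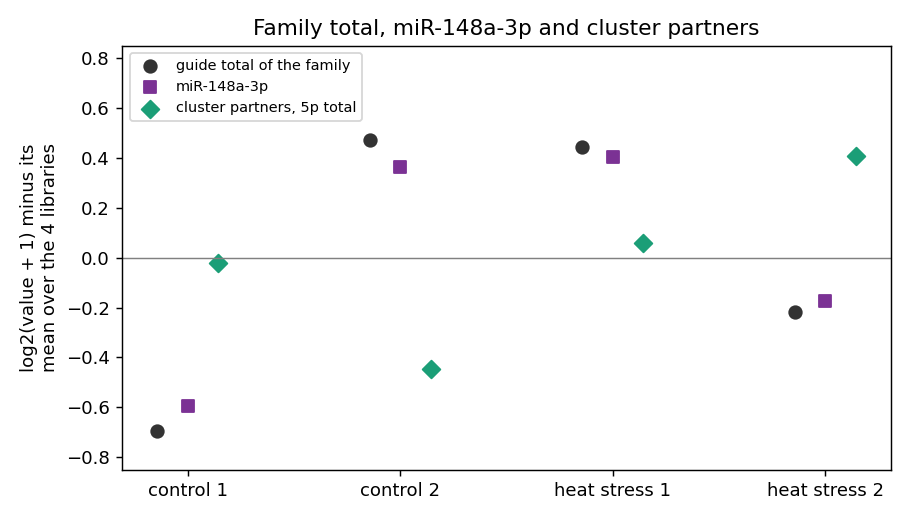
Log2(value + 1) minus its mean over the 4 libraries for the guide total (black circles), miR-148a-3p (purple squares) and the summed 5p cluster partners (green diamonds). The guide total and miR-148a-3p lie below 0 in control library 1 and heat stress library 2 and above 0 in the other 2, whereas the partners are lowest in control library 2 and highest in heat stress library 2.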

How the data were processed

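Small RNA from exosome-enriched preparations was sequenced in 2 control and 2 heat stress libraries. Adapters, short reads and reads of low quality were filtered out by the authors, who aligned the rest to the genome by Bowtie (the submitters' processing notes name BWA and FastQC) and deposited 1 normalized signal per miRNA and library. The genome build, the miRNA annotation release and the handling of reads that match several members are not given in the sources used here. All values above 0 are whole multiples (within 0.01) of 1 step per library, whose inverse (0.738, 1.28, 1.27 and 0.999) acts as a size factor. Since a second check of whole multiples failed in 2 of the libraries, no count model was used. The deposited log2 fold change and p-value columns, the authors' own comparison, were not used.

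Values were compared with limma (version 3.58.1, R version 4.3.3) on log2(value + 1), over 313 miRNAs with a mean of at least 1, with a model of group alone and p-values adjusted over all of them (Benjamini-Hochberg). The code of the fit was checked on simulated counts with planted changes larger than the estimate of any guide miRNA. This check does not show how the fit performs at the changes and the spread of these libraries. P-values rest on limma's shared variance across miRNAs. Sums, shares and ratios are descriptions with no test. Depth limits precision, and limits at 0 cover counting error only. Named miRNAs were all members, the cluster partners, the cell type markers and the 5 miRNAs closest in pattern. Members and lists were chosen with earlier results of these data known. Sequences and coordinates came from RefSeq (GRCm38.p6), gene overlaps from GENCODE M21 (GRCm38). Plots were made in matplotlib 3.10.9. Alternatives were another pseudocount, other filters, other scalings, a replicate block and leaving out each library. Counting the identical 3p rows once, and leaving out let-7d-3p, were chosen after seeing the data.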

Additional observations from a re-analysis of the deposited data

How the results depend on the processing

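Under every setting that used all 4 libraries, 0 guide miRNAs, 0 passenger miRNAs and 0 cluster partners were past the threshold. With the replicate block there were 0 guide miRNAs past it, and 10 miRNAs of the whole table were higher and 4 lower in place of 14 and 9. No label ties equal replicate numbers to a common batch, and deviations from the group means correlated at r = -0.019 between equal numbers across 313 miRNAs (which are not independent replicates), so no pairing was assumed. Of the whole table, 2 miRNAs were lower with a pseudocount of 0.1, 3 lower with log2(CPM + 1), and 6 higher with a mean value of at least 10, which tested 159 miRNAs. The cause was not tested, apart from the miRNAs that this filter removed.

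Of 103 member values under settings with all 4 libraries, 100 kept their direction and their side of the threshold. Those that reversed were all of let-7b-5p, whose log2 change was -0.072 both with log2(CPM + 1) and with library totals, and -0.027 when those totals left out the 5 most abundant miRNAs. Library totals moved the median log2 change of all 313 miRNAs from 0.12 to 0.02 and that of the guide miRNAs from 0.26 to 0.16.

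Leaving out 1 library leaves a lone library in its group, which is assumed to vary like the other group. Of the 60 member values obtained this way, 19 reversed and 2 passed the threshold. Let-7a-5p passed without control library 1 (log2 change -1.03, adjusted p = 0.346 from limma, range over its settings 0.346 to 0.977), and let-7j without heat stress library 1 (1.87, adjusted p = 0.102, range 0.102 to 0.831). The guide miRNAs past the threshold thus ranged from 0 to 1. The log2 change ranged from -0.34 to 1.05 for let-7c-5p, -0.22 to 0.27 for let-7b-5p, -1.03 to 0.19 for let-7a-5p, -0.30 to 0.82 for let-7f-5p, -0.38 to 0.73 for let-7i-5p, -0.60 to 1.23 for let-7g-5p and -0.64 to 0.057 for let-7e-5p. It ranged from -0.075 to 0.43 for let-7d-3p, -1.48 to 1.24 for let-7a-1-3p and let-7c-2-3p, -2.92 to 2.09 for let-7f-1-3p and -0.32 to 1.42 for let-7k. The values of let-7d-5p (0.56 to 0.98), miR-98-5p (0.64 to 2.20) and let-7j (0.07 to 1.87) stayed positive. The guide total ranged from -0.32 to 0.85 and its share of the library from -0.29 to 0.55, with the highest value of both obtained without control library 2. The passenger to guide ratio ranged from -0.35 to 0.25. Among all miRNAs tested, 10 to 39 were higher and 3 to 27 lower. Without either heat stress library 35 miRNAs had an adjusted p under 0.05, and 35 and 34 of them had equal values in the 2 control libraries left to estimate the spread.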
